A study of Harpegnathos saltator with 32 samples.

Results

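The effect of Kr-h1 knockdown was examined in the central brains of workers of the ant Harpegnathos saltator. Members were the worker libraries by their labels: 7 injected with siRNA against Kr-h1 and 8 injected with a control siRNA against GFP, 15 of the 32 libraries of the series. The labels place the workers on day 10. Dicer-substrate siRNA was injected into the head in glucose with a transfection reagent, and each brain was dissected 10 hours later and gave its own library of polyadenylated RNA. The treatment protocol spells the control GRP and the titles GFP, and GFP is used here. Round 2 of the experiment held 4 Kr-h1 and 5 GFP worker brains, round 3 held 3 of each, and all 15 worker libraries share 1 sequencing run. No library came from an uninjected ant, so injection, siRNA and reagent are common to both groups. The other 17 libraries are from gamergates, 8 given Kr-h1 siRNA and 9 given GFP siRNA, and are used only where a difference between castes was tested.

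The product of Kr-h1, a transcription factor with zinc fingers, is induced by juvenile hormone through the receptor Met. In larvae of holometabolous insects it holds back metamorphosis by repressing genes of the adult program, including E93. Harpegnathos workers that win a dueling contest become reproductive gamergates, and this change of role is accompanied by changes in juvenile hormone, ecdysone and brain gene expression.

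Levels are given as FPKM, the deposited unit, in which the authors divided fragment numbers by gene length and scaled them for depth. Read numbers recovered from the steps between low values ranged from 6.26 to 15.2 M per worker library, with a median of 8.07 M. Defining neuronal and glial markers were present throughout. The synaptic vesicle gene nSyb lay between 153 and 198 FPKM in Kr-h1 brains and between 140 and 305 FPKM in GFP brains, and the glial gene repo between 22.1 and 39.98 FPKM in Kr-h1 brains and between 26.1 and 36.1 FPKM in GFP brains. Some libraries stood apart. Among 1000 genes with a median of 5 to 20 reads, 35.4% were at 0 in GFP replicate 4 and 18.8% in GFP replicate 5, against at most 5.3% in the other worker libraries. Each gene's deviation from its mean over the 15 worker libraries was correlated with its length on the genome (Spearman, genes are not independent replicates). The coefficient was highest in Kr-h1 replicate 2, at 0.545. In round 2 it ran from -0.34 to 0.03 in the other Kr-h1 brains and from -0.37 to -0.08 in GFP brains. In round 3 it ran from 0.15 to 0.26 in Kr-h1 brains and from -0.11 to 0.12 in GFP brains. Kr-h1 replicate 2 and GFP replicates 4 and 5, all of round 2, had the 3 lowest weights when library quality was estimated (0.192, 0.169 and 0.358).

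The knockdown itself was checked on its target. Transcripts of Kr-h1 (LOC112589664) were scarce, at 0.302, 0.427, 0.341, 0.840, 0.297, 0.435 and 0.424 FPKM in Kr-h1 replicates 1 to 7, against 0.369, 0.580, 0.998, 2.54, 1.02, 0.611, 0.433 and 0.732 FPKM in GFP replicates 1 to 8. The groups overlapped, and 6 of the 7 knockdown brains lay below the GFP median. The means were 0.438 ± 0.187 FPKM (SD, n = 7) after Kr-h1 siRNA and 0.910 ± 0.701 FPKM (SD, n = 8) after GFP siRNA. On the log2(FPKM + 0.5) scale, which understates changes of low genes, the difference was -0.49 (exact two-sided permutation within rounds, p = 0.031, 2520 splits). These values rest on 15 to 37 recovered reads per Kr-h1 library and 19 to 97 per GFP library.

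In round 2, Kr-h1 averaged 0.478 ± 0.247 FPKM (SD, n = 4) in knockdown brains and 1.10 ± 0.852 FPKM (SD, n = 5) in GFP brains, a log2 difference of -0.60 (exact permutation p = 0.143). In round 3 it averaged 0.385 ± 0.0769 FPKM (SD, n = 3) in knockdown brains and 0.592 ± 0.150 FPKM (SD, n = 3) in GFP brains, a log2 difference of -0.30 (exact permutation p = 0.20, where 20 splits allow no p under 0.10). The difference kept its sign with any library left out. Its exact permutation p then ran from 0.0107 to 0.0786, and was above 0.05 without any of Kr-h1 replicates 1, 3, 5, 6 and 7 or GFP replicates 3, 4 and 5. Without GFP replicate 4, the library with the highest Kr-h1 value, the difference was -0.32.

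**Figure D1:**
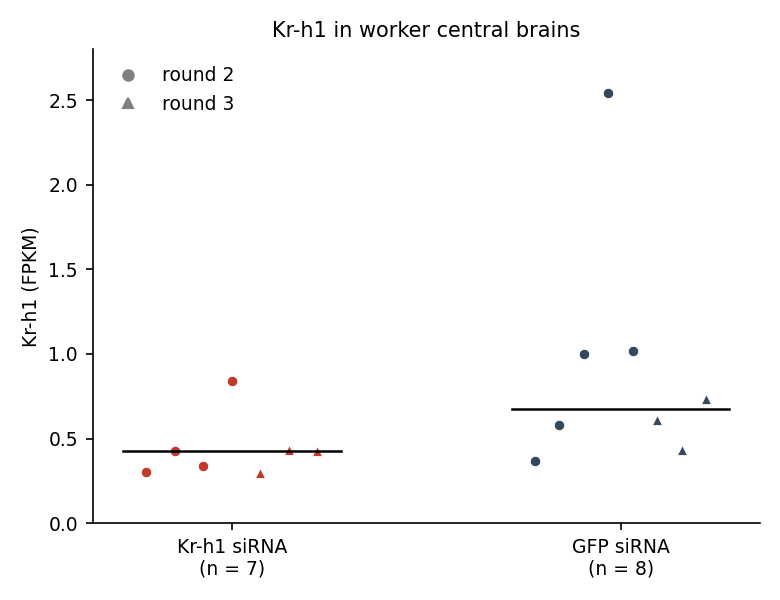
Kr-h1 level (FPKM) in each worker brain, Kr-h1 siRNA left and GFP siRNA right; circles are round 2, triangles round 3, and bars are medians. The 7 knockdown brains lie between 0.297 and 0.840 FPKM and overlap the GFP brains, of which replicate 4 is highest at 2.54 FPKM.

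The first comparison asked which genes differ between Kr-h1 and GFP siRNA in workers. A linear model with a term for the round was fitted with limma to log2(FPKM + 0.5). It covered the 9015 genes that reached 1 FPKM in 7 or more worker libraries, with Benjamini-Hochberg adjustment over all of them. No gene passed an adjusted p of 0.05 (0% of genes), and the smallest adjusted p was 0.207. At an unadjusted p under 0.05 there were 1442 genes (16.0%), 643 above 0 (7.13%) and 799 below 0 (8.86%). Limma voom on the recovered reads also called 0 of 8825 genes, with 1336 at an unadjusted p under 0.05. The values below therefore describe the sizes of differences in these brains, and no gene named is a called change. Replicates were individual brains, per the series' design text.

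Of genes with a name other than a number, the 8 of smallest p with a difference above 0 are given first. The nicotinic acetylcholine receptor subunit gene nAChRa3 (LOC105190849) had 11.98, 14.0 and 15.8 FPKM as lowest, median and highest value in Kr-h1 brains, against 10.2, 11.6 and 11.97 FPKM in GFP brains. Every Kr-h1 brain was above every GFP brain, by a margin of under 0.1 FPKM at the nearest pair, and the log2 difference was 0.28 ± 0.07 (SE; limma adjusted p = 0.207). It was 0.23 in round 2 and 0.37 in round 3, and 0.19 with each library's trend over gene length removed. Of the 9015 genes, 7 had groups that did not overlap (0.0776%), 2 with all Kr-h1 values above (0.0222%) and 5 with all below (0.0555%). The other one of the 7 with a name other than a number was Sem1, a proteasome subunit gene, at -0.37, named here after its values were seen.

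The gene thw had 22.0, 30.9 and 36.8 FPKM as lowest, median and highest in Kr-h1 brains and 15.01, 21.7 and 28.3 FPKM in GFP brains. In limma the log2 difference was 0.49 ± 0.11 (SE, adjusted p = 0.207). All 7 knockdown brains exceeded the GFP median while the ranges overlapped. Toll-7, a receptor of the Toll family, had 14.8, 24.4 and 26.2 FPKM in Kr-h1 brains and 8.30, 12.3 and 24.4 FPKM in GFP brains. Its log2 difference was 0.70 in round 2 and 0.25 in round 3. The actin-nucleating formin gene dia lay at 0.40, anne at 0.58 and unc80, a subunit of the NALCN sodium leak channel complex, at 0.49. The splicing genes Prp40, of the U1 particle, and su(w[a]), an SR-like regulator, lay at 0.38 and 0.29. For each gene of this paragraph, all 7 knockdown brains were above the GFP median, and so were the GFP brains of round 3.

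Below 0, among genes with a name other than a number, the smallest p-values were those of muscle genes, treated next, and of Tctp, Ppib, Dtd and CDase. Tctp (LOC105190117), the translationally controlled tumour protein gene, had 30.6, 35.4 and 48.8 FPKM as lowest, median and highest in Kr-h1 brains, against 39.8, 48.4 and 56.5 FPKM in GFP brains. Kr-h1 replicate 1 alone lay within the GFP range, and the log2 difference was -0.39 ± 0.09 (SE; limma adjusted p = 0.207). Ppib, named for peptidylprolyl isomerase B, had 48.2, 58.0 and 68.5 FPKM in Kr-h1 brains and 58.6, 74.0 and 88.1 FPKM in GFP brains, a log2 difference of -0.39. Dtd, a D-aminoacyl-tRNA deacylase gene, had 3.19, 4.35 and 5.73 FPKM in Kr-h1 brains and 5.35, 6.00 and 8.38 FPKM in GFP brains, a log2 difference of -0.54. CDase, a ceramidase gene, lay at -0.74, with 6 of 7 knockdown brains below the GFP median.

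**Figure D2:**
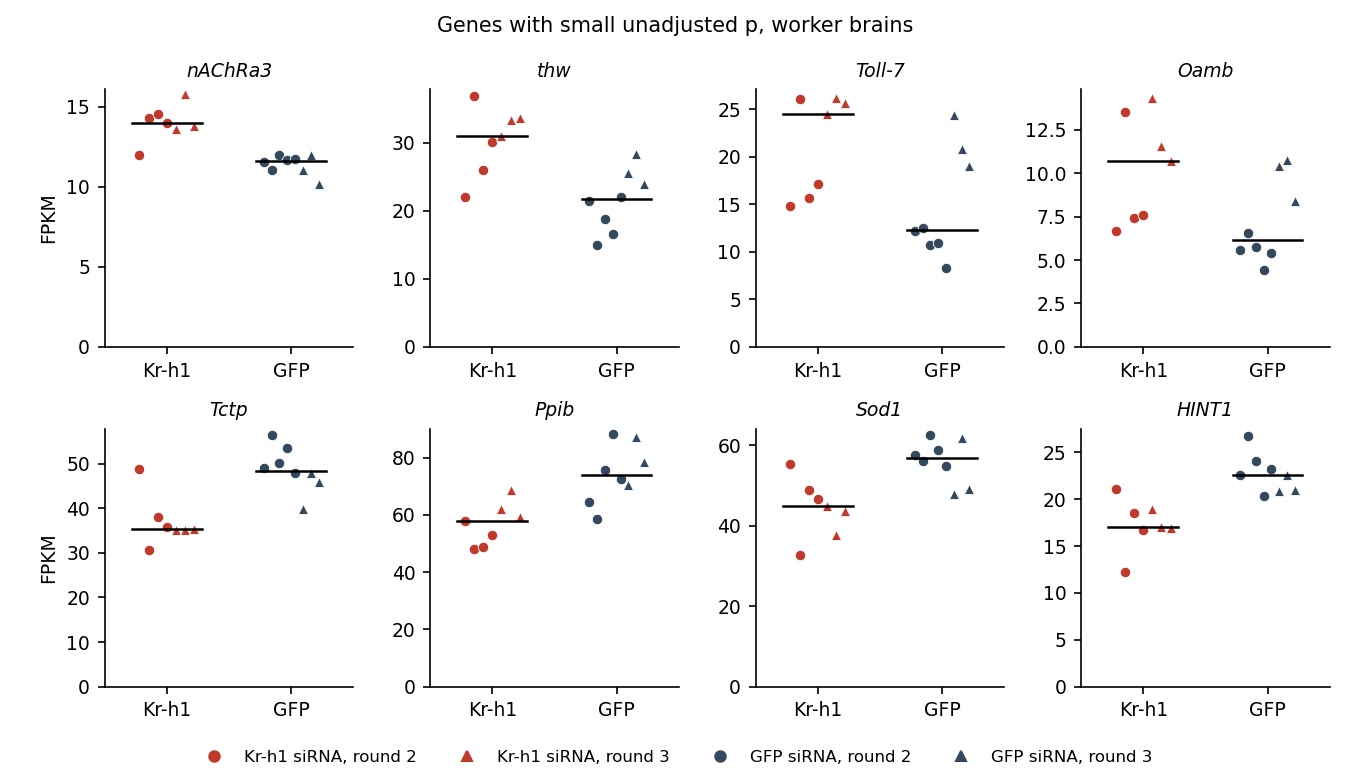
FPKM of 8 named genes in each worker brain, Kr-h1 siRNA left and GFP siRNA right in each panel, with linear axes from 0; circles are round 2, triangles round 3, bars medians. For nAChRa3 the lowest Kr-h1 brain (11.98 FPKM) is just above the highest GFP brain (11.97 FPKM); for Toll-7 and Oamb the GFP brains of round 3 lie above those of round 2.

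Several muscle genes lay far below 0. Mlc2, the myosin regulatory light chain gene, had 14.1, 7.66, 4.76, 1.63, 1.97, 0.811 and 4.18 FPKM in Kr-h1 replicates 1 to 7, against 43.1, 16.1, 8.91, 39.1, 16.6, 6.38, 7.67 and 30.5 FPKM in GFP replicates 1 to 8. Every knockdown brain was below the GFP median, and the log2 difference was -2.01 ± 0.46 (SE; limma adjusted p = 0.207). It was -1.83 in round 2 and -2.28 in round 3, and -1.95 without GFP replicates 4 and 5. The thick filament gene Mf (myofilin) lay at -1.58, the tropomyosin gene Tm2 at -1.46 and the troponin C gene TpnCI at -1.68, with round values of these 3 genes between -1.87 and -1.27.

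Of 18 muscle markers 15 were abundant enough to test, and 12 lay below 0, with 8 below and 1 above at an unadjusted p under 0.05, where the background was 8.86% below and 7.13% above. The median log2 difference was -0.81, against -0.005 over all genes tested. It was -0.88 in round 2, -0.67 in round 3, -0.65 without GFP replicates 4 and 5 and -0.82 with the trend over gene length removed. The 3 members above 0, named after their values were seen, were Zasp66 (0.50), which encodes a Z-disc protein, SERCA (0.09), a calcium pump gene of many cell types, and fln (0.06), the flightin gene. None of the 18 markers was at 0 in any library. Their summed level ran from 111 to 177 FPKM in Kr-h1 brains, with a median of 122 FPKM, and from 138 to 468 FPKM in GFP brains, with a median of 168 FPKM. The GFP maximum was replicate 4. A central brain holds no skeletal muscle, and the part of adhering tissue in this difference was not tested. In bulk libraries, fewer cells of a type and less RNA per cell cannot be told apart.

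The opsin genes Lop1 and Rh5 and the cuticular genes CPR14 and CPR1 lay below 0 in both rounds. Lop1, a long-wavelength opsin gene, had 11.6, 25.7 and 70.0 FPKM as lowest, median and highest in Kr-h1 brains, against 17.4, 99.0 and 190 FPKM in GFP brains. All 7 knockdown brains were below the GFP median, while GFP replicates 1, 3, 5 and 7 lay within the Kr-h1 range. Its log2 difference was -1.47 ± 0.46 (SE; limma adjusted p = 0.212), with -1.46 in round 2 and -1.50 in round 3. Rh5, named for the blue-sensitive opsin of Drosophila, had 1.40, 1.85 and 3.18 FPKM in Kr-h1 brains and 0.805, 4.45 and 12.9 FPKM in GFP brains, a log2 difference of -0.95.

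Of 16 retinal and phototransduction markers tested, these opsins included, 10 lay above 0 and 6 below, with a median of 0.21. The median of retinal and phototransduction markers was -0.06 in round 2, where 7 lay above 0 and 9 below, and 0.19 in round 3, where 13 lay above 0 and 3 below. It was 0.01 without GFP replicates 4 and 5, and between 0.02 and 0.09 without any one of GFP replicates 5, 6 and 7 or Kr-h1 replicates 1, 4, 6 and 7. Among these markers was inaE, a diacylglycerol lipase gene, at 0.47, with 0.69 in round 2 and 0.14 in round 3. The phosphatidylinositol transfer protein gene rdgB lay at 0.24, with 0.34 in round 2 and 0.10 in round 3. The summed retinal level ran from 153 to 857 FPKM in Kr-h1 brains and from 174 to 1052.5 FPKM in GFP brains, with medians of 748 FPKM in Kr-h1 brains and 515 FPKM in GFP brains, so that the medians of the sum ran opposite to the opsin differences. Of 30 cuticular protein and Osiris genes only 7 passed the filter on low values, with 4 below 0 and a median of -0.50. CPR14 had 12.0, 21.8 and 27.96 FPKM in Kr-h1 brains and 21.6, 30.4 and 71.3 FPKM in GFP brains, a log2 difference of -0.82. CPR1 lay at -1.07, with -0.98 in round 2 and -1.21 in round 3. The summed cuticular level ran from 30.2 to 230 FPKM in Kr-h1 brains and from 52.8 to 268 FPKM in GFP brains, of which replicate 4 was highest and the next at 103 FPKM. Its median was 141 FPKM in Kr-h1 brains and 82.6 FPKM in GFP brains, opposite to the differences of CPR14 and CPR1, and its part in the opsin and muscle differences was not tested. Fat body markers (6 tested, 4 above 0, median 0.01) and haemocyte markers (4 tested, 4 above 0, median 0.06, the papilin gene Ppn at 0.48) were also measured. With 1 library left out the medians ran from -0.05 to 0.08 for fat body and from 0.02 to 0.14 for haemocyte markers. With the trend over gene length removed they were -0.07 for fat body and -0.01 for haemocyte markers. The fatty acid synthase gene FASN1 lay at 0.20, or 0.03 without Kr-h1 replicate 2.

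**Figure D3:**
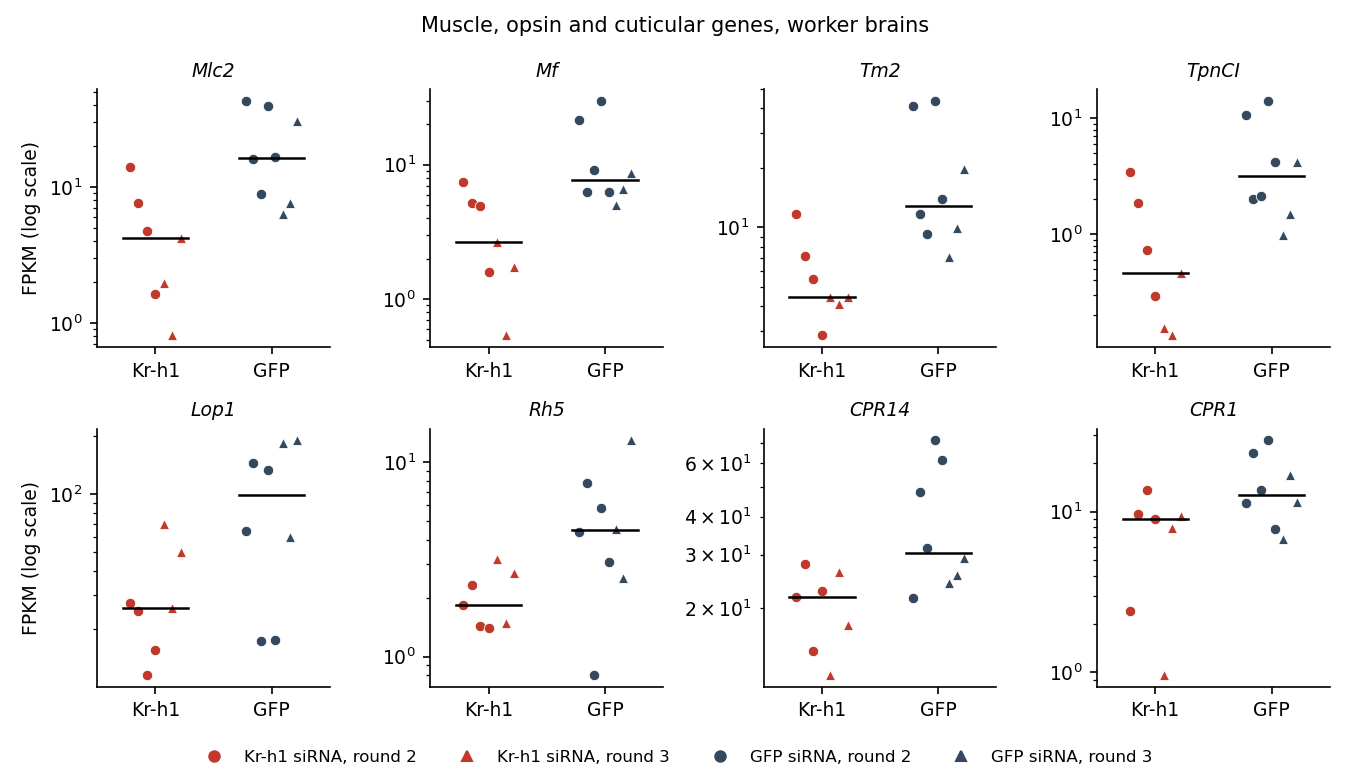
FPKM (log axes) of 4 muscle, 2 opsin and 2 cuticular genes in each worker brain, Kr-h1 siRNA left and GFP siRNA right; circles are round 2, triangles round 3, bars medians. The muscle genes are high in GFP replicates 1 and 4, with Mlc2 at 43.1 and 39.1 FPKM, and the ranges of the groups overlap in every panel.

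The second comparison asked whether the rounds gave the same differences. Across the 9015 genes, which are not independent replicates, the log2 differences of round 2 and round 3 had a Spearman correlation of 0.02, and 4547 genes (50.4%) had the same sign. Each round was fitted alone. No gene passed the adjusted threshold in either (limma, smallest adjusted p 0.194 in round 2 and 0.358 in round 3). At an unadjusted p under 0.05 there were 1660 genes in round 2 (18.4%) and 1012 in round 3 (11.2%). The lists shared 187 genes, of which 107 (1.19% of genes tested) had the same sign, 47 above 0 and 60 below. These 107 were 6.45% of the round 2 list and 10.6% of the round 3 list. Lists of these sizes share genes by size alone, and an overlap beyond that was not tested. A direct test of the difference between the rounds called 0 genes in limma, with 1122 at an unadjusted p under 0.05 (12.4%). With 1 library left out that number ran from 710 without Kr-h1 replicate 6 to 1617 without GFP replicate 1.

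Presence on both lists does not by itself show a repeated effect. Genes at an unadjusted p under 0.05 in each round with the same sign included thw, su(w[a]), anne and Prp40 above 0. Others were lgs, the Wnt pathway adaptor gene legless (0.73 in round 2 and 0.24 in round 3), and Mekk1, a MAP kinase kinase kinase gene (0.43 and 0.35). Also above 0 were l(1)G0196 (0.45 and 0.22) and Plekhm1, a lysosomal trafficking gene (0.35 and 0.23). Below 0 were Mlc2, Tm2, TpnCI, Tctp, Ppib and CDase. HINT1, a histidine triad nucleotide-binding protein gene, lay at -0.46 in round 2 and -0.28 in round 3. ATPsynE, a subunit gene of ATP synthase, lay at -0.50 and -0.31. HINT1 had 12.3, 17.1 and 21.1 FPKM as lowest, median and highest in Kr-h1 brains, against 20.3, 22.6 and 26.8 FPKM in GFP brains.

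**Figure D4:**
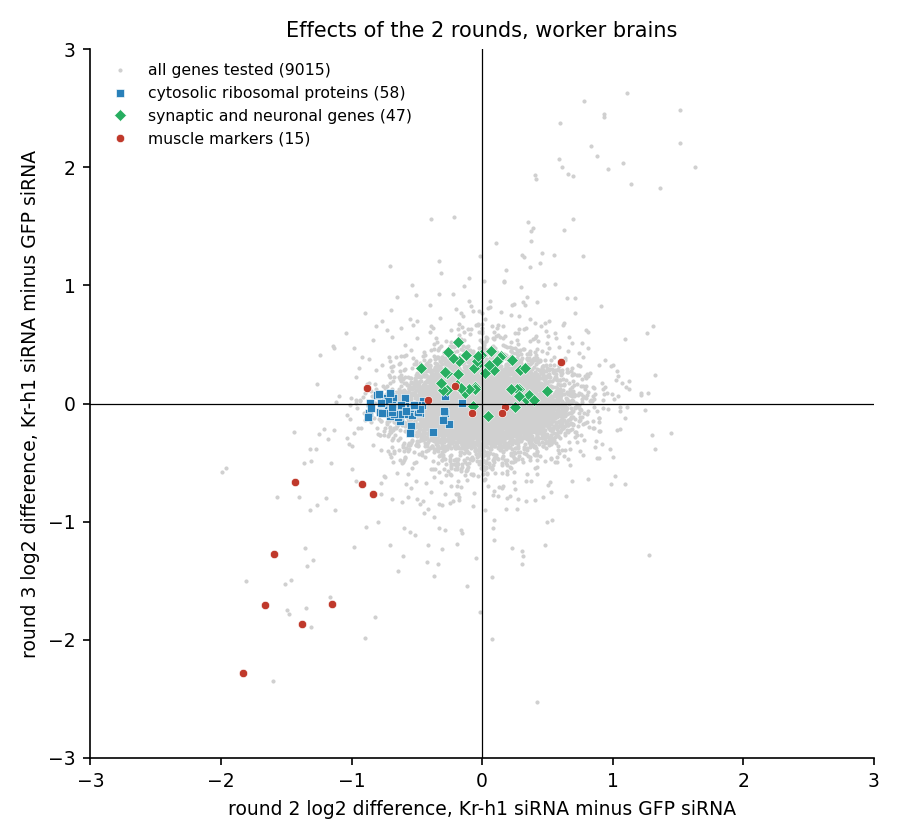
Log2 difference, Kr-h1 siRNA minus GFP siRNA, in round 2 (x axis) and round 3 (y axis) for the 9015 genes tested, with muscle markers (red circles), cytosolic ribosomal proteins (blue squares) and synaptic and neuronal genes (green diamonds). The muscle genes reach the lower left, down to Mlc2 at -1.83 and -2.28, while the ribosomal genes spread along the round 2 axis near 0 in round 3.

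Genes of protein synthesis, protein turnover and respiration lay below 0 as groups, with medians further from 0 in round 2 than in round 3. Of 58 cytosolic ribosomal protein genes 58 lay below 0, 55 of them at an unadjusted p under 0.05, where the background below 0 was 8.86%. Their median was -0.41, with -0.64 in round 2 and -0.06 in round 3. RpLP0, a ribosomal stalk gene, had 63.1, 73.8 and 91.8 FPKM as lowest, median and highest in Kr-h1 brains, against 74.3, 97.6 and 160 FPKM in GFP brains. In limma its log2 difference was -0.43 ± 0.12 (SE, adjusted p = 0.207). RpL28 lay at -0.50, RpL35 at -0.43 and RpS30 at -0.57. Round 3 values of these 4 genes ran from -0.25 to -0.07. The list median moved to -0.20 without Kr-h1 replicate 2 and GFP replicates 4 and 5, the 3 libraries of lowest weight, and to -0.27 with the trend over gene length removed. The median span of these genes was 1.54 kb, against 4.33 kb over all genes tested.

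Mitochondrial ribosomal proteins had 66 of 70 genes below 0. Their median was -0.21, or -0.34 in round 2 and -0.04 in round 3, with mRpL1 at -0.37 and mRpS21 at -0.59. It was -0.10 without Kr-h1 replicate 2 and -0.08 with the trend over gene length removed, and the median span of these genes was 1.39 kb. Oxidative phosphorylation genes had 48 of 51 below 0, 21 of them at an unadjusted p under 0.05 against a background below 0 of 8.86%, and a median of -0.22. That median was -0.33 in round 2 and -0.03 in round 3, -0.13 without Kr-h1 replicate 2 and -0.10 with the trend over gene length removed. UQCR-6.4, a subunit gene of complex III, had 14.7, 23.9 and 33.0 FPKM in Kr-h1 brains and 23.3, 38.8 and 64.3 FPKM in GFP brains. Its log2 difference was -1.03 in round 2 and -0.10 in round 3. COX7C, of cytochrome c oxidase, lay at -0.33. Proteasome subunits had 27 of 30 below 0 (median -0.17), with Rpn12 of the lid at -0.47 and Prosbeta3 of the core at -0.37. Their median was -0.10 without Kr-h1 replicate 2, where Prosbeta3 lay at -0.24, and -0.09 with the trend over gene length removed. Translation factors had 30 of 37 below 0 (median -0.15), with eIF1A, a start site selection factor, at -0.45 and the helicase eIF4A at -0.20. Their median was -0.08 without Kr-h1 replicate 2 and -0.14 with the trend over gene length removed.

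Detoxification and antioxidant enzymes had 11 of 14 below 0 and a median of -0.13, with -0.15 in round 2 and -0.08 in round 3. The superoxide dismutase gene Sod1 had 32.7, 45.0 and 55.3 FPKM in Kr-h1 brains and 47.8, 56.8 and 62.6 FPKM in GFP brains. All 7 knockdown brains were below the GFP median, and its log2 difference of -0.34 was alike in the rounds (-0.36 in round 2 and -0.32 in round 3). The peroxiredoxin gene Prx5 lay at -0.29 and the glutathione transferase gene GstD1 at -0.31. Chaperones had 9 of 14 below 0 (median -0.05), with mitochondrial Hsc70-5 at -0.15 and stv, a BAG co-chaperone gene, at 0.20.

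**Figure D5:**
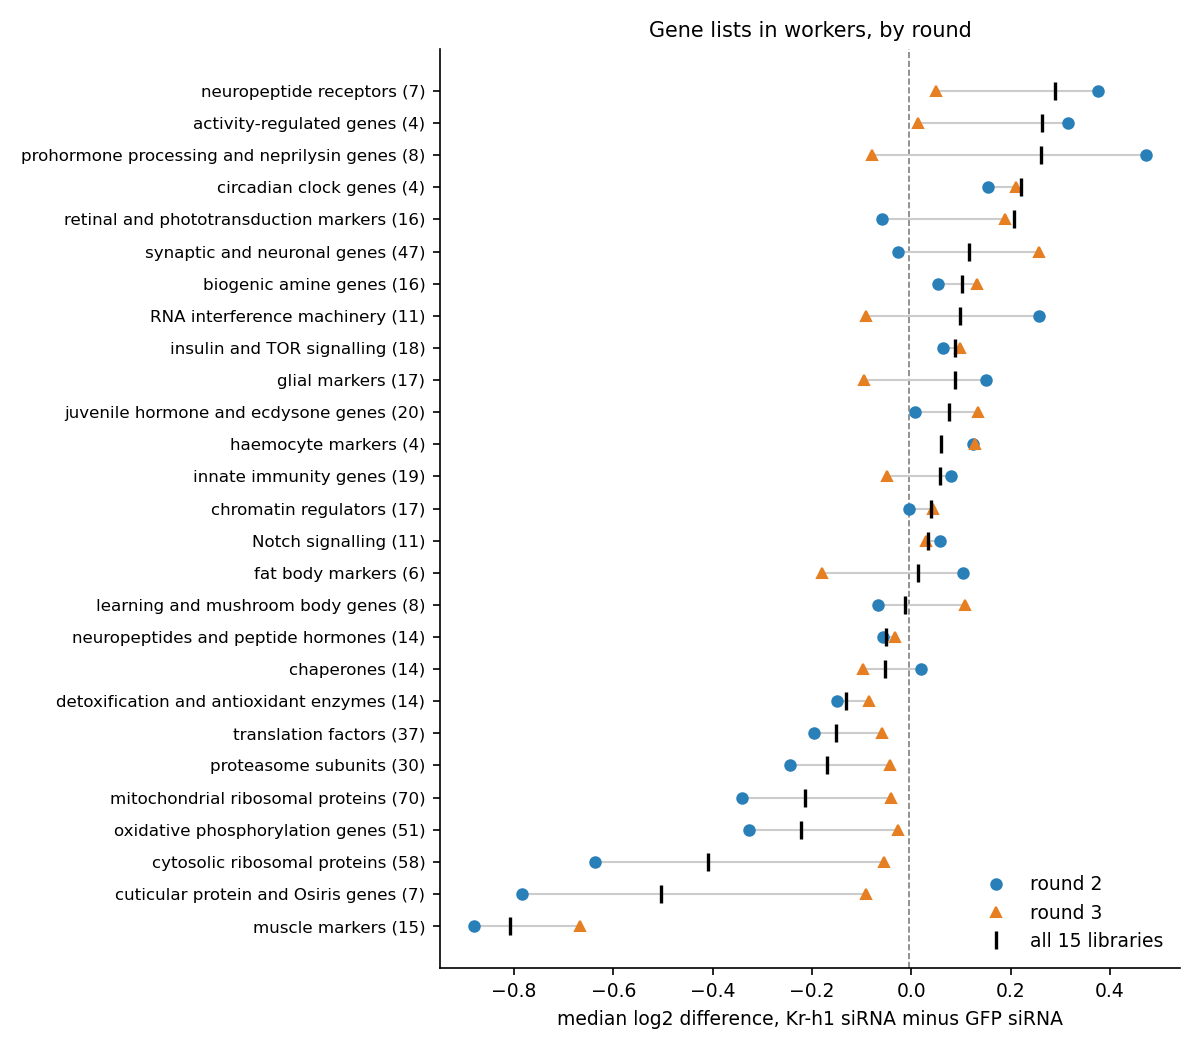
Median log2 difference, Kr-h1 siRNA minus GFP siRNA, of each of 27 gene lists, with the number of genes tested in brackets; circles are round 2, triangles round 3, ticks the fit to all 15 libraries, and the dashed line the median of all genes. Muscle markers lie at -0.88 and -0.67, while cytosolic ribosomal proteins lie at -0.64 in round 2 and -0.06 in round 3.

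Juvenile hormone and ecdysone genes were set out as a list because Kr-h1 acts within this cascade. Of 30 matched members 20 were abundant enough to test, and 15 lay above 0 and 5 below, with a median of 0.08 against -0.005 over all genes. The median was 0.01 in round 2, where 10 lay above 0 and 10 below, and 0.14 in round 3, where 16 lay above and 4 below. It was -0.01 with the trend over gene length removed, and the median span of the list was 49.8 kb. At an unadjusted p under 0.05 there were 3 above 0, where the background was 7.13%, and 0 below. The broad gene br, an ecdysone-response factor, had 1.98, 4.86 and 7.89 FPKM as lowest, median and highest in Kr-h1 brains, against 1.22, 2.37 and 5.21 FPKM in GFP brains. Its log2 difference was 0.56 ± 0.23 (SE; limma adjusted p = 0.266), with 0.86 in round 2 and 0.13 in round 3. E23, an ecdysone-induced ABC transporter gene, lay at 0.52, with 0.78 in round 2 and 0.15 in round 3. The repressor gene Blimp-1 lay at 0.23, the nuclear receptor gene ftz-f1 at 0.24 and Hr96 at 0.16. Without Kr-h1 replicate 2, br lay at 0.34, Blimp-1 at 0.13, ftz-f1 at 0.12 and Hr96 at 0.10. The ecdysone receptor gene Ecr lay at -0.20, with -0.43 in round 2, 0.14 in round 3 and -0.12 without GFP replicate 4. E93, listed as Eip93F, repressed by Kr-h1 in other insects and named for that role, lay at 0.03 ± 0.13 (SE; limma adjusted p = 0.928), with -0.22 in round 2 and 0.40 in round 3.

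Neuropeptide genes were evenly split, with 7 of 14 tested above 0 and 7 below (median -0.05). Dsk, which encodes sulfakinin, a satiety peptide, had 20.9, 35.6 and 42.0 FPKM in Kr-h1 brains and 25.7, 47.2 and 88.5 FPKM in GFP brains. All 7 knockdown brains were below the GFP median, and so were the GFP brains of round 3, at 29.8, 38.6 and 25.7 FPKM. The log2 difference of Dsk was -0.97 in round 2 and 0.03 in round 3, an average of -0.56 over the rounds (limma adjusted p = 0.257). SIFa lay at -0.33 and NPF, a feeding peptide gene, at -0.32, each above 0 in round 3. Dh44, a diuretic hormone gene, lay at 0.30, with 0.57 in round 2, -0.10 in round 3 and 0.19 without Kr-h1 replicate 2. Peptide receptors had 4 of 7 above 0 (median 0.29, or 0.08 without GFP replicates 4 and 5), with the bursicon receptor rk at 0.31 and the pigment-dispersing factor receptor Pdfr at 0.29. Prohormone processing and neprilysin genes had 6 of 8 above 0 (median 0.26, or -0.08 in round 3). The convertase gene amon lay at 0.39, with 0.68 in round 2, -0.04 in round 3 and 0.25 without GFP replicate 4.

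Of 18 insulin and TOR genes 11 lay above 0, with a median of 0.09 (0.05 to 0.13 with 1 library left out). That median was 0.01 with the trend over gene length removed. The insulin receptor gene InR-2 had 4.83, 5.95 and 8.38 FPKM in Kr-h1 brains and 4.24, 4.76 and 5.35 FPKM in GFP brains. Its log2 difference of 0.33 ± 0.10 (SE; limma adjusted p = 0.212) was alike in round 2 (0.34) and round 3 (0.31). The TORC2 gene rictor lay at 0.30, the insulin receptor substrate gene chico at 0.28, and Thor, the translational repressor 4E-BP, at -0.26. Of 16 biogenic amine genes 11 lay above 0 (median 0.10, or 0.04 to 0.14 with 1 library left out), with the octopamine receptor gene Oamb at 0.46 and the serotonin receptor gene 5-HT2B at 0.27. The amine median was 0.04 with the trend over gene length removed. Oamb had 6.64, 10.7 and 14.3 FPKM in Kr-h1 brains and 4.43, 6.16 and 10.8 FPKM in GFP brains.

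Synaptic and neuronal genes had 33 of 47 members above 0, 13 of them at an unadjusted p under 0.05, and a median of 0.12. The background above 0 was 7.13%. By round the median was -0.03 in round 2 and 0.26 in round 3, where 44 of 47 lay above 0. Over both rounds it was 0.06 without GFP replicate 8. NLG-5, a neuroligin gene, lay at 0.34, with 0.50 in round 2 and 0.11 in round 3. The potassium channel gene sei lay at 0.32 and GluClalpha, a glutamate-gated chloride channel gene, at 0.22. The median span of this list was 69.6 kb, and its median was 0.03 with the trend over gene length removed. Glial markers had 11 of 17 above 0 (median 0.09), with loco, a regulator of G protein signalling, at 0.38. The glial median was -0.01 without Kr-h1 replicate 2, 0.02 without GFP replicates 4 and 5 and -0.10 in round 3. All 4 clock genes lay above 0 (median 0.22, or 0.13 without Kr-h1 replicate 2 and 0.12 without Kr-h1 replicate 7). The core clock factor gene Clk had 5.03, 9.01 and 10.8 FPKM in Kr-h1 brains and 3.63, 5.39 and 10.6 FPKM in GFP brains. Its log2 difference was 0.44, with 0.67 in round 2 and 0.09 in round 3.

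Learning and mushroom body genes had 3 of 8 above 0 (median -0.01), Notch signalling 7 of 11 (median 0.03), chromatin regulators 10 of 17 (median 0.04) and innate immunity 12 of 19 (median 0.06). With 1 library left out the median ran from -0.05 to 0.03 for learning and mushroom body genes, from -0.0007 to 0.07 for Notch signalling, from 0.0058 to 0.06 for chromatin regulators and from 0.03 to 0.09 for innate immunity. With the trend over gene length removed the medians were -0.11 for learning and mushroom body genes and -0.02 for Notch signalling. For chromatin regulators that median was -0.02, and for innate immunity -0.004. The chromatin median was also -0.004 in round 2. In round 3, 13 of the 19 immune genes lay below 0 (median -0.05). The cytokine receptor gene dome lay at 0.31, or 0.19 without Kr-h1 replicate 2. Of 4 activity-regulated genes 3 lay above 0 (median 0.26, or 0.12 without GFP replicate 5), with Jra, the Jun gene, at 0.51. The median of these 4 genes was 0.31 in round 2 and 0.01 in round 3, where 2 lay above 0 and 2 below. It was 0.09 without GFP replicates 4 and 5. The RNA interference machinery, through which the injected siRNA acts, had 10 of 11 members above 0 and a median of 0.10, or 0.26 in round 2, -0.09 in round 3 and 0.06 without Kr-h1 replicate 2. AGO2, the siRNA effector gene, had 15.5, 16.2 and 20.3 FPKM in Kr-h1 brains and 14.3, 15.6 and 18.4 FPKM in GFP brains, a log2 difference of 0.07. The siRNA-producing nuclease gene Dcr-2 lay at 0.22 and the microRNA processing gene drosha at 0.28. Without Kr-h1 replicate 2 these were 0.01 for AGO2, 0.13 for Dcr-2 and 0.17 for drosha. None of the 11 was at an unadjusted p under 0.05.

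The third comparison asked whether the knockdown difference in workers departed from that in gamergates. It was fitted to all 32 libraries, in which the gamergates of round 2 were sequenced on a run of their own, so that only round 3 separates caste from run. The test called 1554 of 9433 genes (16.5%), 661 with a higher and 893 with a lower difference in workers. The count depended on Kr-h1 replicate 2, with 399 genes without it, 1009 without Kr-h1 replicate 4 and 165 with the trend over gene length removed. Of the 16 named genes with the smallest p in workers, 11 were called. These genes were chosen for their difference in the same worker libraries, so their share and p-values are no independent evidence. With the trend over gene length removed 4 of the 16 were called (Tctp, thw, Toll-7 and anne), and 10 to 13 with a worker library left out. Tctp lay at -0.39 in workers and 0.40 in gamergates, a difference of -0.80 (limma adjusted p = 0.0155). For thw the values were 0.49 in workers and -0.45 in gamergates, a difference of 0.93 (limma adjusted p = 0.0155). The muscle genes Mlc2, Mf, Tm2 and TpnCI were not among the 11, with gamergate values between -0.20 and 0.01 and differences between -1.82 and -1.29 (limma adjusted p from 0.0526 to 0.106).

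The last comparison asked how genes ranked by their difference between the castes behaved under knockdown. From the GFP controls of round 3, the 200 genes most strongly higher in gamergates and the 200 most strongly higher in workers were taken. These caste-biased genes were ranked in limma without a threshold on p, so a caste difference was not shown for each. Their knockdown differences were read in round 2 workers, with no library in common. Of the gamergate-high genes 118 lay above 0 and 82 below, with a median of 0.07. Of the worker-high genes 40 lay above 0 and 160 below, with a median of -0.28. Over all genes tested the median was 0.0007, with 4518 above 0 and 4497 below. Without Kr-h1 replicate 2 the medians were 0.04 and -0.17, and with the trend over gene length removed 0.03 and -0.19. Gene length moved with the lists: the median span was 13.04 kb for gamergate-high, 2.21 kb for worker-high and 4.33 kb for all genes, and its part in the difference was not tested beyond that removal.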

How the data were processed

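The members and gene lists were chosen with earlier results of these data known. FPKM values, the unit of the deposited table, were made by the authors before deposit, and the tools in the submitters' processing notes are STAR, featureCounts, DESeq2 and bcl2fastq, without version or role. The genome build and whether counting used strand are not stated in the labels or files used here. Libraries were strand-specific, per the labels' protocols. Names and gene spans came from RefSeq assembly Hsal_v8.6, which matched 13989 of 14001 identifiers, and 4116 genes had a symbol other than a number.

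Whole reads were recovered from FPKM steps for 98.5% of the 12692 genes seen in 3 or more libraries. The tolerance was 0.02 reads before a term that grows with the value. Recovered depth per worker library was 6.26 to 15.2 M reads and is an estimate.

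Values of log2(FPKM + 0.5) were tested with limma 3.58.1 (R 4.3.3) for genes that reached 1 FPKM in 7 or more of the 15 libraries, with a round term, eBayes with a mean-variance trend and Benjamini-Hochberg adjustment at 0.05. The fit was checked on simulated data. Kr-h1, below the filter, was tested by exact permutation within rounds. Lists were described by counts and medians without a test. The text names Kr-h1, the 8 symbol genes of smallest p in each direction, up to 8 per direction at an unadjusted p under 0.05 in both rounds, and up to 4 members of each list by p, or 8 for the hormone, neuropeptide and RNA interference lists. Genes named outside this rule are marked where they appear.

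Alternatives changed the scaling, pseudocount, filter, round term, rounds used, replicate block, weights, variance model and libraries, removed each library's loess trend over gene span, and used voom on recovered reads. A fit without the 3 libraries of lowest weight was added after seeing the data, as were all alternatives for the caste-biased genes and for the correlation of the rounds. In the gamergate comparison, 4 group coefficients entered 1 fit with a term for round and run. Replicate numbers in the labels were not used as pairs in the main fit.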

Additional observations from a re-analysis of the deposited data

Results flagged for a closer look

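Some values lay far from the rest of their group, in 16 of 174 groups of values examined. The rule flags about 1 in 20 groups of independent, normally distributed values. The groups examined share libraries, so that rate need not hold for them, and an excess over it was not tested. Kr-h1 was 2.54 FPKM in GFP replicate 4, with the next at 1.02, and 0.840 FPKM in Kr-h1 replicate 4, with the next at 0.435. In Kr-h1 replicate 2, Blimp-1 (6.33 FPKM), amon (130 FPKM), chico (18.5 FPKM) and Dcr-2 (7.96 FPKM) were highest, and RpS30 (11.9 FPKM), Prosbeta3 (20.1 FPKM) and Sem1 (6.83 FPKM) lowest. In Kr-h1 replicate 1, Tctp (48.8 FPKM) and RpLP0 (91.8 FPKM) were highest. Pdfr was highest in Kr-h1 replicate 5 (6.08 FPKM). In GFP replicate 4, RpLP0 was 160 FPKM with the next at 108, and the summed cuticular level was 268 FPKM with the next at 103. Dtd was highest in GFP replicate 5 (8.38 FPKM) and sei in GFP replicate 6 (42.0 FPKM).

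For 11 of the 16 lead genes the knockdown difference in workers departed from that in gamergates (limma adjusted p from 0.0155 to 0.0331), where 16.5% of all genes were called. With the span trend removed 4 of the 16 were called, with no adjusted p under 0.0418. Worker minus gamergate, the log2 differences were 0.93 for thw, 0.63 for dia, 0.78 for anne, 0.41 for nAChRa3, 0.43 for su(w[a]), 0.57 for Prp40, 0.84 for Toll-7 and 0.78 for unc80. They were -0.80 for Tctp, -0.59 for Ppib and -0.87 for Dtd. These genes were chosen on the worker libraries that enter the test.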

How the results depend on the processing

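No alternative called a gene for knockdown in workers, with 1012 to 1660 genes at an unadjusted p under 0.05, including 1035 with the replicate block. Same-numbered Kr-h1 and GFP brains had correlations of deviations from -0.33 to 0.19, and 2 of 6 correlated best with their own number. With 6 such pairs this cannot decide whether the numbers pair the brains. The Kr-h1 difference was -0.60 in round 2 only and -0.30 in round 3 only, and ran from -0.58 to -0.32 with a library left out. The round test called 0 to 1 genes with a library left out, with 1 without GFP replicate 6. The caste test called 165 genes with the span trend removed and 399 to 1704 with a worker library left out.

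Of 863 list medians under alternatives, 13 moved by more than the spread between replicates. That spread is the SD of a list's level among libraries of a group and round. It ran from 0.080 for chromatin regulators to 0.99 for cuticular genes. A change of sign can therefore count as not moved, as for RNA interference genes at 0.26 in round 2 and -0.09 in round 3. Neuropeptide receptors moved to 0.095 with FPKM of at least 5, 0.049 in round 3, 0.16 with the replicate block, 0.078 without GFP replicates 4 and 5 and 0.11 without the 3 libraries of lowest weight. Round 3 gave -0.079 for prohormone processing, -0.096 for glial markers, -0.055 for cytosolic and -0.041 for mitochondrial ribosomal proteins and -0.042 for proteasome subunits. Cytosolic ribosomal proteins were at -0.64 in round 2, -0.22 with array weights and -0.20 without the 3 libraries. Worker-high genes were at -0.17 without Kr-h1 replicate 2 and -0.19 with the span trend removed. The correlation of the rounds was 0.046 without Kr-h1 replicate 2, 0.14 without GFP replicates 4 and 5 and -0.070 with the span trend removed.

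Of 81 named genes, 68 kept their sign in every alternative run. In round 3 only, ftz-f1 was -0.025, amon -0.042, Dcr-2 -0.063, Dh44 -0.096, FASN1 -0.18, SERCA -0.026, fln -0.080, Dsk 0.029, SIFa 0.070, NPF 0.088 and Ecr 0.14. AGO2 was -0.0033 with array weights and -0.0025 with the span trend removed, and FASN1 -0.0084 with array weights and -0.017 without the 3 libraries. Eip93F was -0.22 in round 2, -0.041 with the replicate block and -0.063 with the span trend removed. With a library left out it ran from -0.036 to 0.11, and fln from -0.0026 to 0.10. The cause of these shifts was not tested. Kr-h1 rested on 15 to 97 recovered reads a library.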

Other observations

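The largest positive log2 differences among genes with a symbol, chosen after their values were seen, were those of apd-3l (1.78 ± 1.25, SE), Cpr97Ea (1.72 ± 0.99), conv (1.55 ± 0.93), Cpap3-d (1.19 ± 0.95), Cda5 (1.04 ± 0.69) and serp (0.97 ± 0.54). Their names are those of cuticular proteins, chitin deacetylases (Cda5 and serp) and conv, a gene of tracheal chitin organisation in Drosophila. None was at an unadjusted p under 0.05 in limma. The apidermin-like gene apd-3l spanned 65.9 to 29946 FPKM in Kr-h1 brains, with a median of 7105 FPKM, and 107 to 5496 FPKM in GFP brains, with a median of 361 FPKM. It was high in Kr-h1 replicates 1, 4, 6 and 7 (7105, 7312, 12966 and 29946 FPKM) and lower in Kr-h1 replicates 2, 3 and 5 (360, 566 and 65.9 FPKM). In GFP brains it was highest in replicates 3, 4 and 8 (2332, 3196 and 5496 FPKM).

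The same 4 Kr-h1 brains had the highest summed retinal marker levels of their group, at 748, 819, 834 and 857 FPKM, against 217, 153 and 281 FPKM in replicates 2, 3 and 5. The GFP brains had 907, 530 and 1052.5 FPKM in replicates 3, 4 and 8 and 174 to 680 FPKM in the others. In Kr-h1 replicate 7, the 10 most abundant genes took 42.2% of all FPKM, against 10.1% to 27.7% in the other worker libraries. Lop1, whose log2 difference was -1.47, did not follow this order, with 27.3 and 15.6 FPKM in Kr-h1 replicates 1 and 4 and 70.0 FPKM in Kr-h1 replicate 5. What these libraries share beyond these values was not tested.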
